A study of Mus musculus with 3 samples.

Results

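The core pluripotency transcription factors examined here are 10 genes: Pou5f1, Sox2, Nanog, Klf2, Klf4, Klf5, Esrrb, Tbx3, Nr5a2 and Tcfcp2l1. They were chosen by name, as every non-control spot whose gene name on the array equals one of these symbols. This gave 13 probes for the 10 genes, of 39429 probes in all, each printed once per array, with 1 probe for 7 genes and 2 probes each for Esrrb, Nr5a2 and Tcfcp2l1. All 10 genes had a probe bright enough to test, among 15428 tested genes. RNA came from mouse embryoid bodies, which are aggregates of embryonic stem cells left to differentiate in suspension, after 10 days of growth on low-attachment plates in medium that lacked LIF. One group was the wild type control and the other the Dido3deltaCT mutant, whose Dido3 protein is truncated at its C-terminus, and the lack of LIF and the age were common to both. There were 3 samples per genotype, which the labels call biological replicates. Each of 3 two-colour arrays, all on 1 slide, held RNA of a mutant sample and of a wild type sample. The labels do not say whether a genotype was 1 cell line or several, so genotype and cell line cannot be told apart, and p-values may measure only the spread between cultures.

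Embryonic stem cells keep their identity through a set of transcription factors that bind together at enhancers and activate each other's genes. Pou5f1 (the protein Oct4) and Sox2 bind DNA side by side, and Nanog, Esrrb, Klf2, Klf4, Klf5, Tbx3, Nr5a2 and Tcfcp2l1 (also written Tfcp2l1) join them in the naive state, which LIF and Wnt signals sustain. When LIF is taken away and cells differentiate, the naive factors are normally shut down first and Pou5f1 later, while Sox2 stays on in neural progenitors, Klf2 in endothelium, Klf4 and Klf5 in epithelia, and Nr5a2 and Tbx3 in parts of the endoderm.

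The Pou5f1 and Klf5 probes are shown because they lie in the coding part of their transcripts, so that a reader can see what the array read for these genes. All probes are 60 bases long.
Pou5f1 probe: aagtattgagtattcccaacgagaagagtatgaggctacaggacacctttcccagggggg
Klf5 probe: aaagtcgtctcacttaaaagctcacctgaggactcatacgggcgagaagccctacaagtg
The file places the Pou5f1 probe on chr17:35647280-35647340 of mm9, plus strand, over 61 positions. The Klf5 probe spans 9733 positions of chr14:99702656-99712388, plus strand, and so joins at least 2 exons. The remaining probes are each annotated to 1 transcript of their gene, at unbroken positions, and the files do not say which part of the transcript they read. The 10 genes lie on 9 chromosomes, with Nr5a2 and Tcfcp2l1 both on chromosome 1.

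The 250 bases before the start sites of Pou5f1, Sox2 and Nanog are shown because these 3 factors stand at the centre of the circuit and their ratios, given below, were not alike. The sequences are RefSeq's on GRCm38.p6, plus strand. Capitals mark matches, on either strand, to ATGCAAA (the core of the octamer bound by Oct4), ACAATG (the core bound by Sox factors), the Oct-Sox composite (the octamer core and the Sox core joined with a single base between them, which overlaps both), TCAAGG (the core bound by Esrrb and Nr5a2), GGGNGTGG (the CACCC box bound by Klf factors) and GGGGCGGGG (the GC box).
Pou5f1, chr17:35505782-35506031: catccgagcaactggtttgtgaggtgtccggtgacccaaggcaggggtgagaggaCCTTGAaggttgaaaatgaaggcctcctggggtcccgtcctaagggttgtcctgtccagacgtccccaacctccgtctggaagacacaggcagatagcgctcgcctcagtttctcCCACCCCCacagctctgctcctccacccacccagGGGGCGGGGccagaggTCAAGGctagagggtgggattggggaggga
Sox2, chr3:34649745-34649994: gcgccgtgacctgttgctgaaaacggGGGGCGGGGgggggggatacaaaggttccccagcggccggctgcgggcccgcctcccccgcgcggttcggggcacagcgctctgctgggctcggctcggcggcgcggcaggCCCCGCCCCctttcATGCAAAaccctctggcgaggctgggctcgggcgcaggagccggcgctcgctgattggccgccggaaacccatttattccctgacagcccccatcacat
Nanog, chr6:122707239-122707488: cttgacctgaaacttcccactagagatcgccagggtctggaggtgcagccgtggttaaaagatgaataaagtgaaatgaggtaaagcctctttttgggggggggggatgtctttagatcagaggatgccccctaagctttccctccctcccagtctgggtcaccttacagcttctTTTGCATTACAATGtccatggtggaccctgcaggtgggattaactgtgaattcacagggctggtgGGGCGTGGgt
The composite, searched in this form only, was in 2 of 32851 promoter windows of this length (0.00609%). Both were windows of Nanog, which has 2 listed starts, as has Pou5f1. The 2 Nanog windows overlap and hold the same composite site. In the window shown it lay 75 to 62 bases before the start. The core TCAAGG occurred at 2 places in the Pou5f1 window shown, 195 to 190 and 30 to 25 bases before the start, and 12.5% of all windows held it. ATGCAAA was in 4.13% of all windows and, among the 8 members with a listed promoter, in Sox2 and Nanog. ACAATG was in 3512 of the 32851 windows and, among the members, in both windows of Nanog and in the window of the second Pou5f1 start, which is not shown. GGGNGTGG was in 15.9% of all windows and GGGGCGGGG in 10.4%. The longer form TCAAGGTCA, in 0.387% of all windows, was in none of the members' windows. Klf5 and Tbx3 were not in the table.

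Each value below is a log2 ratio of mutant over wild type, or a normalised intensity, which is a channel's background-corrected brightness after scaling, in arbitrary units that hold an added offset of 50. Intensities of different probes cannot be set against each other. Between 46.5% and 62.5% of spots in the mutant channels and between 48.5% and 74.4% in the wild type channels were well above background, and the number of arrays limits the precision. Mutant RNA carried Cy3 on arrays 1 and 3 and Cy5 on array 2, so dyes were not balanced. Array 2 stood apart: over all tested genes its ratios correlated at 0.151 and 0.18 with those of arrays 1 and 3, which correlated at 0.879 with each other. Over the 10 members the same correlations were 0.69, 0.601 and 0.933 (a description over genes measured on the same arrays). Results are therefore also given without array 2, where genotype and dye cannot be told apart. Dido1, the targeted gene, had a ratio of 1.74 ± 0.27 at its brightest probe (limma adjusted p = 0.0580), which does not check the genotype because the limits of the truncation are not in the labels.

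In mutant embryoid bodies 9 of the 10 factors had a mean ratio above 0, and Klf4 alone had one below 0. None passed the limma test over all genes at an adjusted p of 0.05, a call made for 0.207% of tested genes in the higher direction and 0.0907% in the lower. At an unadjusted p under 0.05 there were 7 members higher and 1 lower, against 11.4% and 11.3% of all tested genes. At an adjusted p under 0.1 there were 4 higher (Esrrb, Klf2, Pou5f1 and Nr5a2) and 0 lower, against 4.22% and 3.8%. The members' median ratio was 1.26, with array medians of 1.35, 0.93 and 1.08, beside a median of 0.035 over all tested genes. Ratios were above 0 on all 3 arrays for 8 members and below 0 on all 3 for 1, against 21.7% and 22.7% of tested genes. The intensities of the genotypes did not overlap for 6 members higher in the mutant and 1 lower, against 11% and 10.3%. In bulk RNA, fewer cells of a type and less RNA per cell cannot be told apart.

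**Figure D1:**
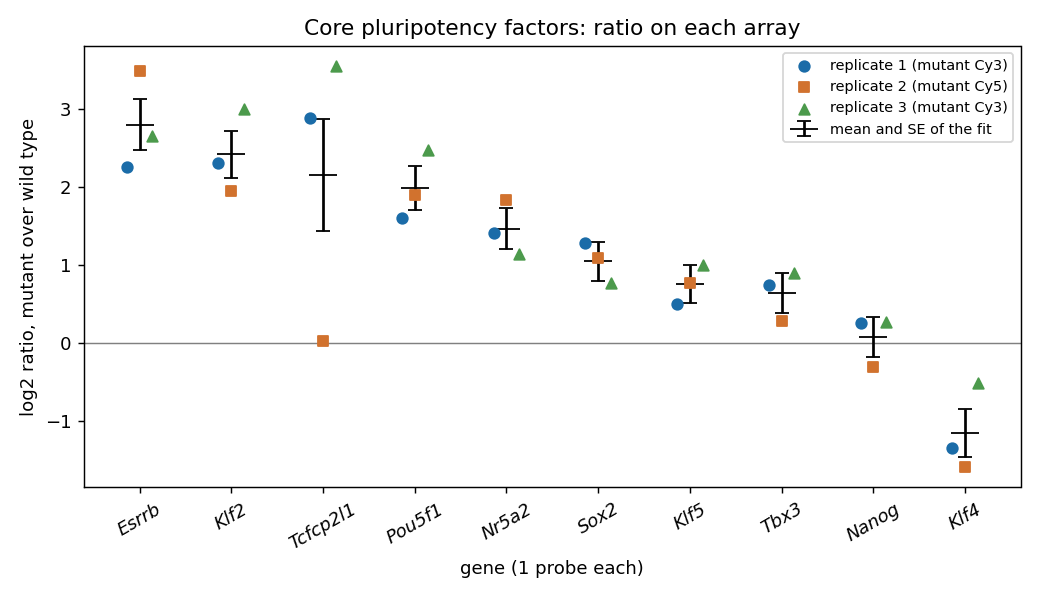
Log2 ratio of mutant over wild type (y axis) for 1 probe of each factor (x axis), with a point for each of the 3 arrays and the mean with the SE of the limma fit. Esrrb, Klf2, Tcfcp2l1 and Pou5f1 have means from 1.99 to 2.80, Nanog lies near 0 and Klf4 lies below 0 on every array.

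Pou5f1, which encodes the POU-domain factor Oct4, had normalised intensities of 8018, 6431 and 18692 in the mutant samples of arrays 1, 2 and 3, and of 2628, 1724 and 3360 in the wild type samples. Every mutant sample lay above every wild type sample, and the mutant sample of array 3 was the highest. The ratios were 1.61, 1.90 and 2.48, with a mean of 1.99 ± 0.28 (SE of the limma fit, n = 3), a 3.99-fold higher mean that did not pass (limma adjusted p = 0.0560). The factor's ratio was higher in 1.34% of tested genes.

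Sox2, an HMG-box factor and the DNA-binding partner of Oct4, had intensities of 5618, 2252 and 2952 in the mutant and of 2297, 1058 and 1728 in the wild type. The mutant sample was the brighter on each array, but the mutant sample of array 2 was dimmer than the wild type sample of array 1, so the groups overlapped. The ratios of 1.29, 1.09 and 0.77 gave 1.05 ± 0.25 (SE, n = 3; limma adjusted p = 0.101), a 2.07-fold higher mean. On each array the Sox2 ratio was below that of Pou5f1, by 0.94 ± 0.70 on average (SD, n = 3).

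Nanog, a homeodomain factor that stabilises the naive state, had intensities of 108, 131 and 193 in the mutant and of 89.9, 161 and 160 in the wild type. The groups overlapped, and all 6 samples were dim. Its spots read between 74.5 and 149 scanner units over a local background of 29 to 35. They counted as well above background on all arrays, where the dimmest such probes had normalised intensities of 64.9 to 135. Nanog's ratios were 0.26, −0.30 and 0.27, with a mean of 0.079 ± 0.26 (SE, n = 3; limma adjusted p = 0.881) and a 95% interval of −0.59 to 0.74. The added offset draws the ratios of such dim probes toward 0. With an offset of 16 the ratio was 0.11 and with Agilent's processed signals 0.27. Pou5f1 had the higher ratio of the pair on every array, by 1.92 ± 0.49 (SD, n = 3).

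Esrrb, an orphan nuclear receptor that Wnt signalling releases from repression, had the highest ratio of the 10. Its intensities were 21856, 15753 and 23807 in the mutant and 4546, 1403 and 3779 in the wild type. The groups stood well apart, with the wild type sample of array 2 the lowest. The ratios of 2.27, 3.49 and 2.66 gave 2.80 ± 0.32 (SE, n = 3), a 6.98-fold higher mean. It lay at the threshold: the limma adjusted p was 0.0502 over genes and 0.049975 over all 19142 tested probes. A further Esrrb probe, annotated to another transcript (chr12:87856069-87856128 of mm9, plus strand), was not well above background in any sample. Its intensities were between 68.6 and 135, so it gives no level for that transcript. The probe used lies at chr12:87862509-87862568.

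Nr5a2 is a nuclear receptor (also called LRH-1) that binds the Pou5f1 promoter in epiblast cells and also acts in endoderm and liver. Its brighter probe (chr1:138740903-138740962 of mm9, minus strand) had intensities of 2625, 1660 and 2358 in the mutant and of 987, 464 and 1063 in the wild type. All mutant samples were above all wild type samples. The ratios of 1.41, 1.84 and 1.15 gave 1.47 ± 0.26 (SE, n = 3; limma adjusted p = 0.0678), a 2.76-fold higher mean. The dimmer probe (chr1:138741712-138741771), on the same transcript, gave ratios of 1.90, 0.67 and 1.82 with a mean of 1.46 ± 0.69 (SD, n = 3; limma adjusted p = 0.104 over all probes). The means of both probes were nearly equal, while their order across arrays was not: array 2 was the highest for one and the lowest for the other.

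The 3 Krüppel-like factors, zinc-finger proteins that can stand in for each other in stem cells, did not share a direction. Klf2 had intensities of 7597, 9388 and 7551 in the mutant and of 1532, 2420 and 947 in the wild type. No sample of a genotype reached into the range of the other. Its ratios of 2.31, 1.96 and 2.996 gave 2.42 ± 0.30 (SE, n = 3; limma adjusted p = 0.0543), a 5.35-fold higher mean.

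Klf4, the family member through which LIF and Stat3 feed the circuit, had intensities of 5702, 4667 and 4383 in the mutant and of 14370, 14025 and 6229 in the wild type. All mutant samples lay below all wild type samples, and the wild type sample of array 3 was the closest to them. The ratios of −1.33, −1.59 and −0.51 gave −1.14 ± 0.31 (SE, n = 3; limma adjusted p = 0.122), so that the wild type mean was 2.21-fold higher. Klf5, whose intensities were 7555, 5463 and 4099 in the mutant and 5322, 3188 and 2046 in the wild type, overlapped between genotypes, although the mutant sample was brighter on each array. Its ratios of 0.51, 0.78 and 1.00 gave 0.76 ± 0.25 (SE, n = 3; limma adjusted p = 0.166).

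Among the 45 pairs of factors, the difference between Klf2 and Klf4 had the smallest SD over arrays, and it is described for that reason. The pair of Nanog, which was dim, and Tbx3 had nearly the same SD (0.07298), so Klf2 and Klf4 were not alone in this. The SDs ran from 0.0726 to 2.44, with a median of 0.664. Klf2's ratio exceeded Klf4's by 3.64, 3.54 and 3.50 on the 3 arrays, a mean of 3.56 ± 0.073 (SD, n = 3), although each ratio on its own had an SD over 0.5 (0.53 and 0.56). Klf5's ratio lay above Klf4's by 1.90 ± 0.43 and below Klf2's by 1.66 ± 0.43 (SD, n = 3). With 3 arrays an exact two-sided sign-flip test of such a difference cannot give a p below 0.25, and each of these 3 pairs had that p. Of the 45 pairs of factors, 34 kept the same order on all 3 arrays (exact sign-flip p = 0.25, adjusted p = 0.331 over the pairs). The pairs share genes, and no share over pairs of all tested genes is given beside the count, so it only describes these factors. Of the other 11 pairs, 7 included Tcfcp2l1.

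Tcfcp2l1, a CP2-family factor that LIF and Stat3 induce in stem cells, was the least even across arrays. At its brighter probe (chr1:120581646-120581705 of mm9, plus strand) the intensities were 1836, 1615 and 2937 in the mutant and 248, 1581 and 250 in the wild type. The wild type sample of array 2 was at the level of the mutant samples, while the other wild type samples were far below. The ratios were 2.89, 0.030 and 3.55, with a mean of 2.16 ± 0.72 (SE, n = 3; limma adjusted p = 0.172), and 3.22 without array 2. The dimmer probe (chr1:120577637-120577696), on the same transcript, had ratios of 1.51, 0.76 and 1.10 and a mean of 1.12 ± 0.38 (SD, n = 3; limma adjusted p = 0.109 over all probes). That probe was brightest on array 2 in both genotypes, at 709 against 289 and 131 in the wild type and at 1201 against 826 and 280 in the mutant. Tbx3, a T-box factor of naive cells and of extraembryonic endoderm, had intensities of 6011, 6840 and 5696 in the mutant and of 3580, 5612 and 3059 in the wild type. The groups only just failed to overlap. The ratios of 0.75, 0.29 and 0.90 gave 0.64 ± 0.26 (SE, n = 3; limma adjusted p = 0.228).

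**Figure D2:**
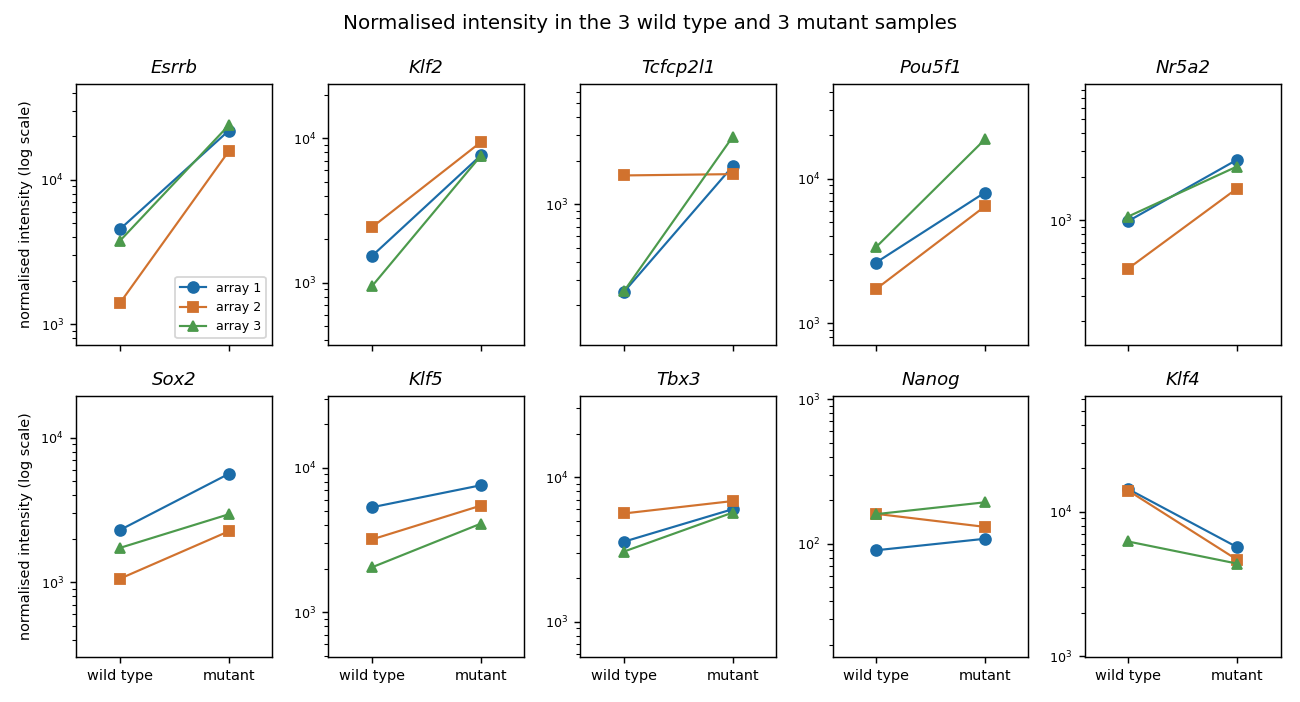
Normalised intensity (y axis, log scale, arbitrary units) of 1 probe per factor in the wild type and mutant sample of each array, joined by a line. Lines run upward for Esrrb, Klf2, Pou5f1, Nr5a2, Sox2, Klf5 and Tbx3 on all arrays and downward for Klf4. For Tcfcp2l1 the wild type sample of array 2, at 1581, lies at the mutant level.

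Without array 2, 8 members were called higher and 1 lower by limma, but so were 25.9% and 21.9% of all tested genes, and the residual error then came from 2 arrays of the same dye orientation. The 8 were Pou5f1, Sox2, Klf2, Klf5, Esrrb, Tbx3, Nr5a2 and Tcfcp2l1, and the lower was Klf4. A fit with a dye term gave the same 8 and 1, against 16.2% and 15.3% of tested genes, with its residual error also from arrays 1 and 3. When the pairing of samples on an array was left out of the fit, Klf2 and Esrrb passed (limma adjusted p = 0.0354 and 0.0357), against 1.15% of tested genes. In the authors' deposited table the mean ratios were 2.67 for Esrrb, 2.42 for Klf2, 1.83 for Pou5f1 and −1.14 for Klf4.

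**Figure D3:**
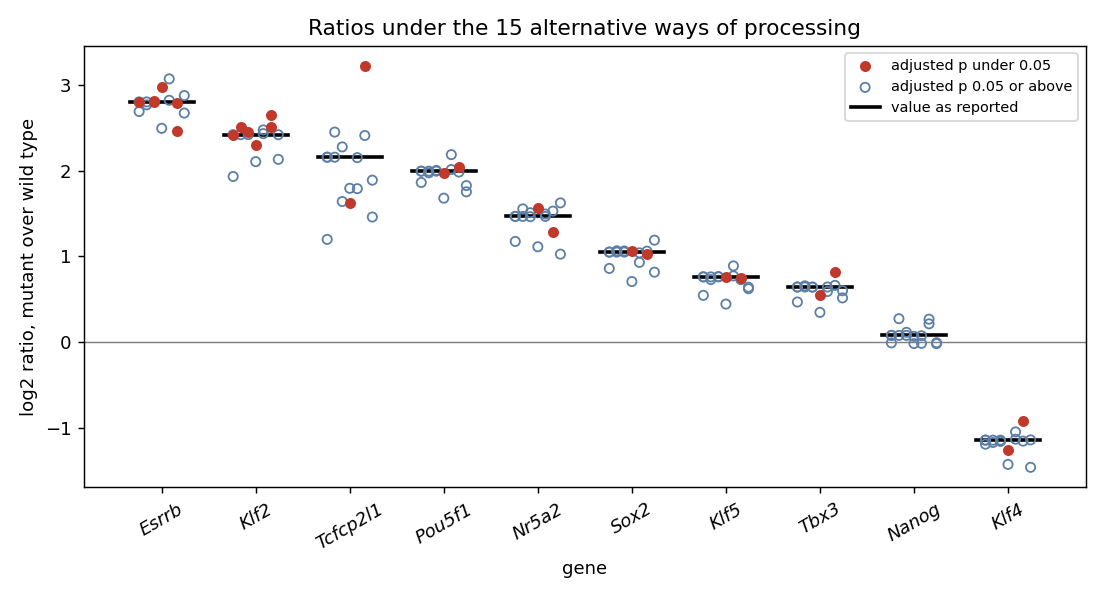
Log2 ratio of mutant over wild type (y axis) of each factor (x axis) under 15 alternative ways of processing, filled where the limma adjusted p was under 0.05, with the reported value as a bar. Nanog is the only factor whose sign changes, and Tcfcp2l1 has the widest range, from 1.199 to 3.22.

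Genes that work with these factors were taken from lists chosen by function. Of 18 partners and co-regulators, 17 were tested, and 1 rose, 0 fell and 16 did not pass. The median ratio was 0.69, and 10 of the 17 had an unadjusted p under 0.05 in the higher direction and 0 in the lower, beside the 11.4% and 11.3% of all tested genes given above. Nr0b1, a nuclear receptor that binds Oct4, rose by 3.92 ± 0.34 (SE, n = 3; limma adjusted p = 0.0417), with ratios of 4.50, 3.17 and 4.08. That call was lost under 7 of the 15 alternatives, among them extreme-background spots kept in the model (3.41, limma adjusted p = 0.153) and leaving out array 1 (3.63, adjusted p = 0.0960) or array 3 (3.83, adjusted p = 0.0756). Tcl1, a co-activator of Akt that Oct4 controls, had 2.77 ± 0.33 (limma adjusted p = 0.0527). At the low end of the list, Nacc1 had −0.13 ± 0.28 and Etv4 0.21 ± 0.53. Without array 2, 11 partners were called higher and 0 lower, against 25.9% and 21.9% of all tested genes.

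The 14 target genes were all tested, and 2 rose, 0 fell and 12 did not pass. Their median was 2.17, above that of the factors themselves, and 12 of 14 had an unadjusted p under 0.05 in the higher direction, against 11.4% of all tested genes. Zfp42, the naive-state marker Rex1, rose by 3.17 ± 0.26 and Dppa5a, an RNA-binding protein of stem cells, by 2.67 ± 0.23 (SE, n = 3; limma adjusted p = 0.0417 for both). Both calls were lost under the same 7 alternatives as that of Nr0b1, with ratios of 3.09 and 2.72 and an adjusted p of 0.122 for each in limma when extreme-background spots were kept. Without array 1 the limma adjusted p was 0.0960 and 0.126, and without array 3 it was 0.105 and 0.1405. Dppa3, a maternal and germ cell factor, had ratios of 4.25, 0.80 and 5.21 and a mean of 3.42 ± 0.87 (limma adjusted p = 0.113). The lowest were Tdgf1, the Nodal co-receptor Cripto, at 1.25 ± 0.51 and Fbxo15, an F-box gene controlled by Oct4 and Sox2, at 0.70 ± 0.36. On array 2 these last had ratios of −0.21 and −0.011. All 14 targets were called higher when array 2 was left out, as were 25.9% of all tested genes.

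Of 8 genes known to repress the circuit 5 were tested, and none passed. Their median was −2.80, with 4 below 0 on all 3 arrays, against 22.7% of all tested genes. The same 4 were lower at an unadjusted p under 0.05, against 11.3%. Nr2f1, an orphan receptor of the COUP-TF kind that represses Pou5f1, had −5.00 ± 0.56 (limma adjusted p = 0.0502), with ratios of −5.40, −3.44 and −6.18. Nr2f2, its close relative, had −3.57 ± 0.56 (limma adjusted p = 0.0598) and exceeded background clearly in 2 of the 3 mutant samples. Cdx2, the trophoblast and posterior factor that opposes Pou5f1, had −1.71 ± 0.29, likewise in 2 of the 3, and Mbd3, a subunit of the NuRD complex, 0.098 ± 0.45. Nr6a1, which silences Pou5f1 during differentiation, was too dim to test. Kdm1a had no value on array 3 and Tcf7l1 none on array 1. Tcf7l1 intensities in mutant and wild type were 1548 and 4050 on array 2, but 5730 and 1632 on array 3. Without array 1, where 6 repressors were tested, the median was −1.91. Without array 3, where 6 were also tested, it was −2.275. Without array 2, 4 of the 5 were called lower, against 21.9% of all tested genes.

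Of 11 genes of the LIF and Stat3 pathway 10 were tested, and none had an unadjusted p under 0.05 in either direction. Over all tested genes the shares were 11.4% higher and 11.3% lower. The median was −0.52, with array medians of −0.53, −0.027 and −0.17. Stat3 itself had −0.94 ± 0.41 (limma adjusted p = 0.261) and its feedback inhibitor Socs3 −0.71 ± 0.30 (limma adjusted p = 0.252). The kinase gene Pim3 had 0.64 ± 0.26, and Lif, with ratios of 2.08, −0.62 and 0.40, had 0.62 ± 0.55. Lif exceeded background clearly in 2 of the 3 mutant samples. Without array 2, 4 of the 10 were called lower, beside the 21.9% given above.

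**Figure D4:**
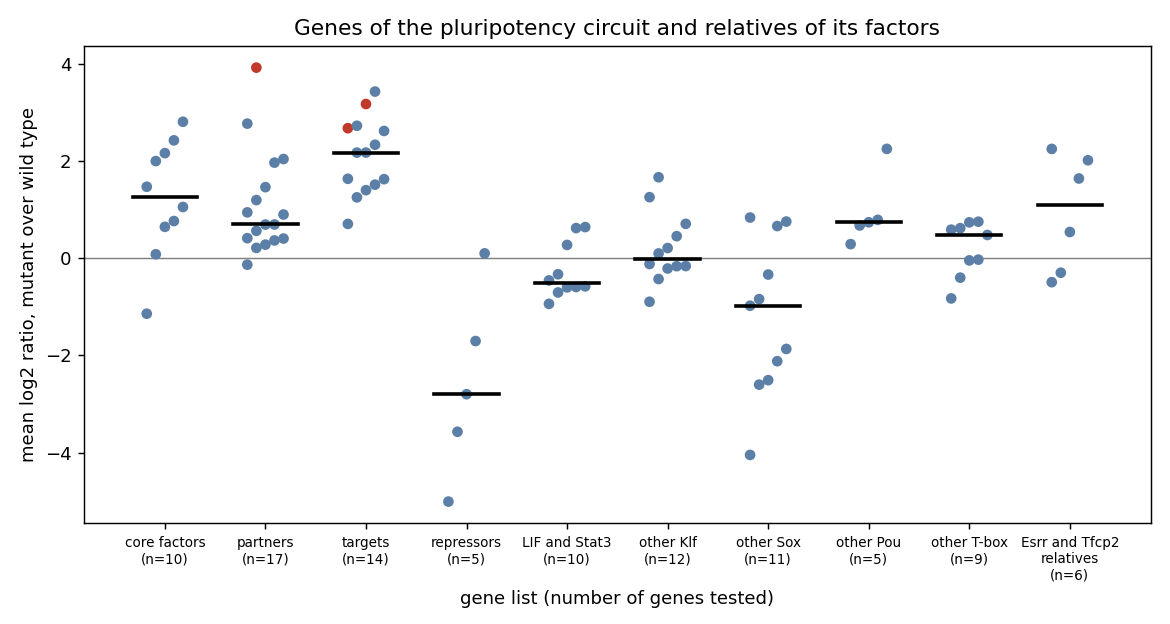
Mean log2 ratio of mutant over wild type (y axis) for each tested gene of 10 lists (x axis), with the list's median as a bar and genes at a limma adjusted p under 0.05 in red. The targets have a median of 2.17, the repressors −2.80 and the other Klf genes −0.013.

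Relatives of the factors were read in the same fit. Of the 14 other Klf genes 12 were tested and 0 passed, and their median of −0.013 was close to that of all genes. Klf15 had 1.66 ± 0.68, with −0.36 on array 2, Klf9 1.25 ± 0.28 (limma adjusted p = 0.0943), Klf14 −0.90 ± 0.28 and Klf6 −0.43 ± 0.27. Klf14 exceeded background clearly in 2 of the 3 mutant samples. Of the other Sox genes 11 of 18 were tested, 0 passed and the median was −0.98. At an unadjusted p under 0.05 there were 5 lower and 1 higher, against 11.3% and 11.4% of all tested genes. Sox1, which shares the SoxB1 subgroup with Sox2 and marks neural progenitors, had −4.05 ± 0.68 (limma adjusted p = 0.0624), and the endoderm factor Sox17 had −2.60 ± 0.45. The highest were Sox15, at 0.83 ± 0.35, and Sox5, at 0.75 ± 0.24.

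Of the other POU genes 5 of 13 were tested and 0 passed. Pou3f1, the Oct6 gene of the primed epiblast and of neural and glial precursors, had 2.25 ± 0.24 (limma adjusted p = 0.0502), with ratios of 2.42, 2.21 and 2.11. The next was Pou4f1, at 0.79 ± 0.34, and Pou2f1 and Pou3f4 had 0.29 ± 0.47 and 0.67 ± 0.43. Pou3f4 exceeded background clearly in 2 of the 3 mutant samples. Of the other T-box genes 9 of 16 were tested and 0 passed, with Tbx22 at 0.75 ± 0.49, Eomes, of streak and trophoblast, at 0.74 ± 0.30, Tbx20 at −0.40 ± 0.29 and Tbx1 at −0.83 ± 0.27. Tbx20 exceeded background clearly in 2 of the 3 mutant samples and Tbx1 in 1. Among 6 tested relatives of Esrrb and Tcfcp2l1, 0 passed. Grhl1 and Grhl2, epithelial factors of the grainyhead branch of the CP2 family, had 2.25 ± 0.36 and 2.01 ± 0.31 (limma adjusted p = 0.0602 and 0.0580). Grhl3, of the same branch, had 1.64 ± 0.23 (limma adjusted p = 0.056). The nearer relatives did not share a direction. Tfcp2 and Esrra had −0.49 ± 0.25 and −0.30 ± 0.23, and Esrrg had 0.54 ± 0.44. The Esrrg ratios were 1.73, 0.012 and −0.13, and it exceeded background clearly in 2 of the 3 mutant samples. Without array 2, where 25.9% of all tested genes were called higher and 21.9% lower, the calls were 3 higher and 1 lower among the Klf genes, 2 and 8 among the Sox genes, 2 and 0 among the POU genes, 2 and 1 among the T-box genes, and 3 and 0 among these relatives.

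Markers of other cells that use these factors were read beside them, and their part in the factors' ratios was not tested. For Sox2 the neural progenitor markers matter. Of 11, 7 were tested and 0 passed, and 4 were below 0 on all 3 arrays, against 22.7% of all tested genes. The summed intensity of the list ran from 1882 to 3207 in the mutant samples and from 3829 to 65803 in the wild type samples. No mutant sample had Neurog2, a proneural factor, well above background. Its intensities were 66.55, 84.81 and 94.01 in the mutant and 192.3, 83.66 and 486.1 in the wild type. The genotypes were thus level on array 2. Zic1 had −5.42 ± 1.04, with ratios of −6.78, −2.21 and −7.26, and exceeded background clearly in 2 of the 3 mutant samples. The highest of the tested markers was Msi1, at −0.12 ± 0.26, likewise in 2 of the 3. Nes, an intermediate filament of these cells, had −0.91 ± 0.53, with 0.56 on array 2, and Sox1 is given above.

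Germ cells also use Pou5f1, Sox2 and Nanog. All 10 germ cell markers were tested and 0 passed, and 7 were above 0 on all 3 arrays, against 21.7% of all tested genes. The markers' summed intensity was 16096 to 25257 in the mutant and 7535 to 14367 in the wild type. Dppa3 and Dazl had the highest ratios (3.42 ± 0.87 and 2.23 ± 0.63), Nanos3 had −0.030 ± 0.31 and Kit −1.92 ± 0.35. Dppa3 is also in the target list and Prdm14 among the partners. For Nr5a2 and Tbx3, the 12 extraembryonic endoderm markers had 0 genes past the threshold and 11 below 0 on all 3 arrays. Over all tested genes 22.7% were below 0 on all 3. The sum of these markers, Sox17 among them, was 15499 to 91633 in the mutant and 154789 to 395493 in the wild type. Array 2 has no value for the brightest Foxa2 probe, so its sums leave Foxa2 out.

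Endothelial and blood markers, relevant to Klf2, had 6 of 9 genes tested. Hbb-bh1, an embryonic globin, fell by 3.91 on the log2 scale (SE 0.34, n = 3; limma adjusted p = 0.0417), and Cdh5, the endothelial cadherin, had −1.49 ± 0.25. Cdh5 exceeded background clearly in 2 of the 3 mutant samples. The Hbb-bh1 call was lost under the same 7 alternatives as those above, with a limma adjusted p of 0.299 and a ratio of −2.94 when extreme-background spots were kept, 0.0960 without array 1 and 0.0753 without array 3. Gata1, the erythroid factor, had ratios of 0.90, 0.56 and 0.69 and a mean of 0.72 ± 0.24, and Pecam1, an endothelial adhesion molecule, had 0.19 ± 0.30. Pecam1 exceeded background clearly in 2 of the 3 wild type samples. Tie1 was well above background in no sample of either genotype, and Tek, Emcn and Sox18 in no mutant sample. That limit differed between channels. On arrays 1, 2 and 3 the dimmest such probes had 84, 66 and 129 in the mutant and 65, 135 and 81 in the wild type. Sox18 intensities overlapped, at 89.07, 82.1 and 78.27 in the mutant and 97.97, 80.6 and 113.9 in the wild type. The summed intensity of the list was 1825 to 2576 in the mutant and 6081 to 8981 in the wild type. Hbb-bh1 made up most of that gap: without it, a choice made after its values were seen, the sums were 1562 to 1831 and 2026 to 2121. The epithelial markers, relevant to Klf4 and Klf5, had 8 of 9 tested and 0 passed, with sums of 34133 to 76718 in the mutant and 42645 to 148508 in the wild type, which overlap. Krt8 had −0.84 ± 0.29 and Cdh1 1.21 ± 0.53, with −0.32 for Cdh1 on array 2. Epcam had 0.88 ± 0.51, with −0.56 on array 2, and Krt19 −0.82 ± 0.53, with 0.34 on array 2. The trophoblast markers, relevant to Esrrb and Klf5, had 6 of 8 tested and 0 passed. Their sums also overlapped, at 45197 to 166014 in the mutant and 32383 to 46088 in the wild type. Gcm1 made up most of each sum. Its intensities were 134900, 37060 and 155800 in the mutant and 35880, 41300 and 24810 in the wild type. Gcm1's ratio was 1.47 ± 0.58, with −0.16 on array 2. Prl3d1 and Ascl2 had 1.90 ± 0.50 and 1.80 ± 0.37, while Hand1 had −0.66 ± 0.26 and Cdx2, given above, −1.71 ± 0.29. Prl3d1 exceeded background clearly in 2 of the 3 wild type samples. In the fit without array 2, which called 25.9% of all tested genes higher and 21.9% lower, the calls were 6 of 7 lower among the neural markers, 12 of 12 lower among the endoderm markers, and 6 higher and 1 lower among the 10 germ cell markers. They were 1 higher and 3 lower of 6 for endothelium and blood, 2 and 1 of 8 for epithelium, and 3 and 2 of 6 for trophoblast. A sum is led by the brightest probes of its list.

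The genes most like Pou5f1 across the 3 array ratios, by Euclidean distance among 15428 tested genes, were Gm2085, Fkbp6 and Lyzl4 (distances of 0.12, 0.16 and 0.21). No further gene lay within 0.25. The genes most like Nanog were Fam53a, Ndufa4 and Commd10 (0.030, 0.047 and 0.055), among 222 genes within 0.25.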

How the data were processed

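RNA of 3 mutant and 3 wild type embryoid body samples was read as 3 two-colour pairs. The deposited scanner output, made with Agilent Feature Extraction 10.7.3.1 per the file headers, holds intensity values of both dyes for each spot (mean, local background and processed) and a log10 ratio of red over green. The authors' deposited value table holds log2 ratios, for which the submitters' processing notes name limma. Its columns labelled replicates 1 and 3 each correlated more closely with the other's scanner file (r = 0.9155 and 0.983) than with their own (r = 0.771 and 0.842). Its medians lay between −0.04 and 0.01, and how it was centred is not given in the sources used here.

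Mean signals were corrected by normexp (offset 50) and normalised by loess within arrays in limma 3.58.1 (R 4.3.3), where control spots had weight 0. The background model for replicate 3 left out 7 spots whose local background was over 10 times the median, a rule set after the signals had been seen. Outlier-flagged spots were left out. Tested probes (19142) were measured on all 3 arrays and, in 1 genotype or both, well above background on each of them, with the brightest probe for each of 15428 genes. Of 39429 probes, 26761 took their symbol from RefSeq's GRCm38.p6 table. The two-sided test of log2 ratios against 0 used lmFit and eBayes. P-values were adjusted by Benjamini-Hochberg over all tested genes (threshold 0.05), and the script was tested on simulated data. Normalised intensities are both channels after loess and Aquantile scaling. The ratio pairs the samples of an array.

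Besides the 10 members, named genes were those of each list past the threshold, then up to 2 with the highest and 2 with the lowest ratios, and the 3 genes nearest to Pou5f1 and to Nanog. Gcm1 is named too, because it made up most of the sums of its list. Esrrg and Grhl3 are named to complete the tested relatives of Esrrb and Tcfcp2l1. Some genes that were not tested are named as such. The members and lists were chosen with earlier results of these data known. A further gene of the neural marker list is counted in its sums but not reported here. There were 15 alternatives.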

Additional observations from a re-analysis of the deposited data

How the results depend on the processing

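Of the 10 factors, 9 kept the sign of their ratio under all 15 alternatives (8 above and 1 below 0). Nanog changed sign with extreme-background spots kept in the model (−0.0080), in the authors' deposited values (−0.0067), with a dye term (−0.016), without replicate 1 (−0.014) and without replicate 3 (−0.018). In each its limma adjusted p was at least 0.945, and without replicate 2 the ratio was 0.27. The count of members called higher was 0 as reported, where 0.207% of all tested genes were called higher. It was 1 with Agilent processed signals under loess (0.907% of all tested genes) and with the mean over a gene's probes (0.434%). The count was 2 with an offset of 16 (0.739%), with Agilent's own log ratios (1.69%) and with unpaired channels (no replicate block, 1.15%). With a dye term it was 8 (16.2%), and 1 was called lower (15.3%). With 1 replicate left out, the counts ran from 0 to 8 higher and from 0 to 1 lower. Only leaving out replicate 2 gave any, where 25.9% of all tested genes were called higher and 21.9% lower. The members' median of 1.26 was 1.02 with extreme-background spots kept, 0.91 with median centring and 0.92 in the authors' values. Median centring moved the median of all genes from 0.035 to −0.22. Over all tested genes limma called 32 higher and 14 lower as reported, 4 and 3 with median centring, and 4009 and 3387 without replicate 2. It called 0 with extreme-background spots kept, with 1684 genes below 0.05 before adjustment, and likewise 0 in the authors' values, with 3056 such genes. The cause of these moves was not tested. The limma adjusted p for Esrrb ran from 0.00112 to 0.159 and for Pou5f1 from 0.00291 to 0.298. Signals of the second Esrrb probe were not well above background in any sample, and those of Nanog were, but dim.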
